A study of Homo sapiens with 2 samples.

Results

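The segment of human chromosome 5 known as 5q13 that carries SMN1, SMN2 and their neighbours held 23 of the 2692 peaks of RNA recovered with HA-precipitated GATA2. Members were all peaks of the deposited list whose midpoint lay between positions 68800000 and 70900000 of chromosome 5 on hg19. The members were chosen by position, and the bounds and the genes were set with the peak positions of these data known, so the number and crowding of the peaks are given as a description, with no test. The remaining 143 peaks of chromosome 5 served as the comparison. Just outside the bounds, the nearest peak before spanned 68629693 to 68630584 and scored 80.03. The nearest after spanned 71146488 to 71147211 and scored 221.8. Just inside, the first member started at 68855721 with a score of 51.23 and the last ended at 70809419 with a score of 55.84.

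The peaks came from 1 library, an HA immunoprecipitate from K562, an established leukaemia cell line. The cells carried a GATA2 transgene, were given doxycycline (1 µg/mL, 5 hours) and 4-thiouridine (100 µM, 24 hours), and were irradiated with light of 365 nm (0.3 J/cm2) to fix RNA to protein. An input library from the same treated cells belongs to the series and was not analysed here. Both libraries shared the transgene and every treatment, so no cells without the transgene or without doxycycline were compared. The assay was a CLIP variant, in which the RNA fixed to a precipitated protein is trimmed, sequenced and mapped. With 1 library there is no replicate spread, the read depth is unknown, and each score is the authors' own value for the peak, on a scale the file does not state. All peak positions are on hg19 and are counted from 1. The list has no strand and no gene names.

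The region is a segmental duplication: long stretches occur in several nearly identical copies, and the number of copies varies between chromosomes. SMN1 encodes the survival motor neuron protein, which helps to assemble the RNA-protein particles of the spliceosome, and its loss causes spinal muscular atrophy. SMN2 is its near-identical copy, from which most transcripts skip one exon. The SERF1 genes encode a small protein that affects protein aggregation, NAIP encodes an intracellular sensor of bacterial proteins, and GTF2H2 encodes a subunit of the transcription and DNA repair factor TFIIH. BDP1, beside the duplicated stretches, encodes a subunit of TFIIIB, which recruits RNA polymerase III.

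In the RefSeq gene table, which is of GRCh38.p14 and was used only for names, sizes and order, the 8 named genes lay in the order GTF2H2C, SERF1B, SMN2, SERF1A, SMN1, NAIP, GTF2H2, BDP1. SERF1B thus stood before SMN2 as SERF1A stood before SMN1. Of the 57 genes of that table from GTF2H2C to BDP1, 29 were pseudogenes, among them 4 of NAIP, 4 of CDH12 and 7 of GUSB. Another was GTF2H2B, a further copy of GTF2H2, which lay between SMN2 and SERF1A. The order on hg19 was not checked. On hg19 only 3 places were at hand, an approximate position of 69.35 Mb for SMN2, one of 70.22 Mb for SMN1 and an interval from 70.75 to 70.86 Mb for BDP1. They are called landmarks here. NAIP, the SERF1 genes and the GTF2H2 genes had no landmark, so no peak is assigned to them.

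The likeness of paired copies was looked at only in promoters, for GTF2H2C with GTF2H2 and for the SERF1 pair. GTF2H2B was not compared, and promoters do not show how alike the copies are over their whole length. RefSeq sequences of GRCh38.p14 were at hand for 5 of the 8 genes, namely GTF2H2C, GTF2H2, SERF1A, SERF1B and BDP1, and not for SMN1, SMN2 and NAIP. Their coordinates cannot be set beside the hg19 peaks. The lines below give the 250 bases before each start, 5′ to 3′ on the gene's strand. Capitals in the GTF2H2 pair mark bases that differ between the copies. GTF2H2C is at chr5:69559941-69560190 on the plus strand and GTF2H2 at chr5:71067677-71067926 on the minus strand, so these copies face opposite ways. The SERF1A window, chr5:70900419-70900668, and the SERF1B window, chr5:70025001-70025250, are both on the plus strand and identical, so their sequence is printed once.
GTF2H2C: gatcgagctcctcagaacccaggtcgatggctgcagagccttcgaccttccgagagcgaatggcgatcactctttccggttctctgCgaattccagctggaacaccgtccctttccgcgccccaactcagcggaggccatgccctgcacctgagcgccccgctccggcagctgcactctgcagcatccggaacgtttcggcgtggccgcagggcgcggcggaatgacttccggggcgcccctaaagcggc
GTF2H2: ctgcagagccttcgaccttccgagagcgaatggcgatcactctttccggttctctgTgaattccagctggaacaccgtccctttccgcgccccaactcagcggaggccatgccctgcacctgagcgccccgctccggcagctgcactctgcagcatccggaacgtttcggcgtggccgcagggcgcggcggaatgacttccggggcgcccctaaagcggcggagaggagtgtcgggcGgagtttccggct
SERF1A and SERF1B: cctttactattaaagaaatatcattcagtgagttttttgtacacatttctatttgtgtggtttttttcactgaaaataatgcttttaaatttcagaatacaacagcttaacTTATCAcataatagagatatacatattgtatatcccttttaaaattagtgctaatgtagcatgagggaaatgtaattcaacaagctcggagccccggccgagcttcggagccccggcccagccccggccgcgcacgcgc

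Over the full entries of 300 bases, SERF1A and SERF1B matched at 300 of 300 positions. GTF2H2C and GTF2H2 shared an aligned stretch of 270 bases with 268 identical (99.3%). They differed by C87T and T268G, with positions counted from 1 at the first base of the GTF2H2C entry and the GTF2H2C base named first. The T268G position lies past the start of GTF2H2C and so appears only in the GTF2H2 line. A short read from such a stretch often has several equally good positions in the genome, and how such reads were placed is not given in the sources used here. The capitals in the SERF1 line mark TGATAA on the opposite strand, a form of the motif that GATA factors bind in DNA. AGATAA or TGATAA on either strand occurred in the same 250 bases of 5113 of 35116 promoters in the table (14.6%), and in neither the GTF2H2 pair nor BDP1. These matches are of letters only.

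Neither SMN landmark held a peak. Around each, 0 peaks lay within 50 kb. The landmark of SMN2 sat in a stretch without peaks of 205.4 kb, bounded by peaks 151.4 kb before and 54.0 kb after it. The landmark of SMN1 sat in a stretch of 204.4 kb, bounded by peaks 145.2 kb before and 59.2 kb after it. In the gene table SMN2 spans 41.0 kb and SMN1 41.4 kb, so the bounding peaks lay farther from the landmarks than the genes are long. The peak-free stretches around the copies were thus close in size. This size was not limited to them, since a stretch of 204.0 kb without a landmark ended at the peak of 4814 bp before SMN2. A copy without a peak in this list is not a copy without recovered RNA, since the depth and the treatment of reads that match both copies are unknown.

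**Figure D1:**
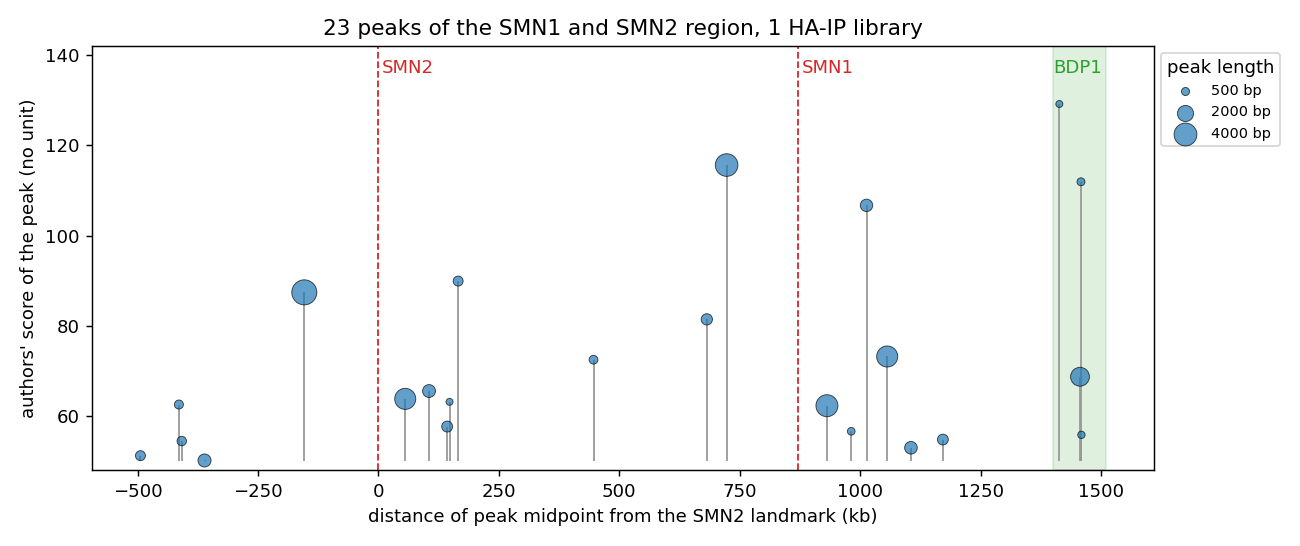
Midpoints of the 23 peaks, as distance in kb from the SMN2 landmark, against the authors' score, with circle area proportional to peak length, in 1 library. Dashed lines mark the SMN2 and SMN1 landmarks and the shaded band the BDP1 interval. Both SMN lines stand in stretches without a peak, and the highest score, 129.14, is in the BDP1 band.

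The first 5 members lay before the SMN2 landmark, on the side where the gene table places GTF2H2C and SERF1B. The first ran from 68855721 to 68856483 (763 bp) with a score of 51.23. The next pair, from 68935571 to 68936196 (626 bp, score 62.56) and from 68941486 to 68942169 (684 bp, score 54.47), was separated by 5289 bp. The fourth, from 68988470 to 68989778 (1309 bp), had the lowest score of the region, 50.16, close to the lowest score of the whole list, 50. All 4 scored below the median of the whole list, 65.905. The fifth, from 69193808 to 69198621, was the longest of the region with 4814 bp and scored 87.41.

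Between the SMN2 and SMN1 landmarks lay 8 members. The first 5 of them gathered in the 165.5 kb after SMN2. A broad one ran from 69404020 to 69407422 (3403 bp, score 63.81) and was followed by one from 69454497 to 69455770 (1274 bp, score 65.55). A close pair came next, from 69492301 to 69493223 (923 bp, score 57.68) and from 69497488 to 69497864 (377 bp, score 63.15), with 4264 bp between them. The last of this group, from 69515160 to 69515922, was 763 bp long and scored 89.91. The longest peak-free stretch of the region, 280.3 kb, separated it from an isolated peak from 69796187 to 69796782 (596 bp, score 72.49). Before SMN1 stood a peak from 70031204 to 70032181 (978 bp, score 81.43) and one from 70070831 to 70074752. The latter, 3922 bp long, had the second highest score of the region, 115.61.

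After SMN1, on the side where the gene table places NAIP and GTF2H2, lay 6 members up to the BDP1 interval. A broad peak from 70279182 to 70282889 (3708 bp, score 62.3) was followed by a narrow one from 70331169 to 70331622 (454 bp, score 56.63). The third, from 70362645 to 70363830 (1186 bp), stood out among these 6 with a score of 106.68. A further broad peak ran from 70404373 to 70407775 (3403 bp, score 73.2). It was followed by one from 70454782 to 70456008 (1227 bp, score 52.98) and one from 70521252 to 70522153 (902 bp, score 54.8). The other 5 of these 6 peaks thus scored between 52.98 and 73.2.

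BDP1 was the only named gene with an interval as its landmark, and this interval held peaks, 4 in 0.11 Mb or 36.4 per Mb. Before SMN2, between the SMN landmarks, and from SMN1 to BDP1, the densities were 9.09, 9.2 and 11.3 per Mb. The first BDP1 peak, from 70763177 to 70763550, was the shortest of the region with 374 bp and had its highest score, 129.14, which ranked 211 in the whole list. The other 3 lay within 4473 bp of one another. They ran from 70804947 to 70807670 (2724 bp, score 68.71), from 70808079 to 70808561 (483 bp, score 111.9) and from 70809006 to 70809419 (414 bp, score 55.84), with gaps of 408 and 444 bp. Here the broadest peak did not carry the highest score. Counting these 3 as 1 peak leaves 21 members and lowers the density of the BDP1 interval, which rests on few peaks.

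Some peaks stood at like distances from the landmarks of SMN2 and SMN1. Of the peaks around SMN2, one of 4814 bp had its midpoint 153.8 kb before the landmark, and one of 3922 bp stood 147.2 kb before that of SMN1. After the landmarks, a peak of 3403 bp at 55.7 kb from SMN2 had its counterpart of 3708 bp at 61.0 kb from SMN1. A peak of 1274 bp at 105.1 kb from SMN2 was matched by one of 454 bp at 111.4 kb from SMN1. One of 923 bp at 142.8 kb from SMN2 was matched by one of 1186 bp at 143.2 kb from SMN1. The order of broad and narrow peaks was therefore the same on both sides for the first 3 of these matches, while the lengths within these matches differed by 892, 305 and 820 bp. The landmarks are given only to 0.01 Mb, so their own error is of the same order as the shifts between the copies.

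The first 3 of these matched pairs had midpoint distances of 876.6, 875.3 and 876.3 kb, which lie within 1262.5 bp of one another. They were picked as the largest group of pairs near the landmark distance whose distances lie within 1500 bp of one another. Their closeness therefore follows from the choice. The fourth pair was 870.5 kb apart, about 5 kb short of the others. It was picked among the remaining peaks as the pair nearest to the landmark distance. With a shift of 876262 bp, the middle of the 3 distances, the peak of 4814 bp covered the whole of its counterpart of 3922 bp. The peak of 3403 bp then overlapped 70.3% of its counterpart, and the peak of 1274 bp covered the whole of the one of 454 bp. This shift is the midpoint distance of that last pair, and the other distances of the group are close to it. Overlap in these pairs therefore follows from the choice of shift. Overlap of several pairs was not limited to this shift: one of 42836 bp gave 4 overlapping pairs, 3 of them with a peak covered whole, and one of 556878 bp gave 2. These shifts too were taken from distances between members. Scores within the pairs were 87.41 and 115.61, 63.81 and 62.3, 65.55 and 56.63, and 57.68 and 106.68, with the SMN2 side first. The SMN1 side was higher in 2 pairs and lower in 2, so neither side had the higher score throughout. The scores have no error, and the differences were not tested.

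**Figure D2:**
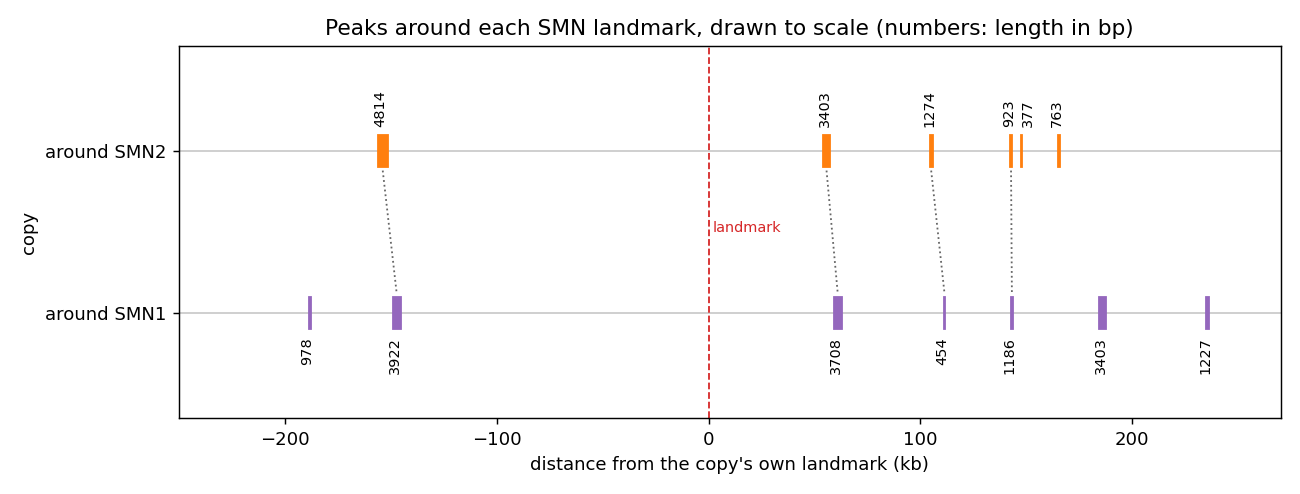
Peaks around the SMN2 landmark (upper row) and the SMN1 landmark (lower row), as distance in kb from the copy's own landmark, with boxes drawn to scale and lengths in bp. Dotted lines join the 4 matched pairs. The first 3 lines lean the same way, by 6.6, 5.3 and 6.3 kb, and the fourth by 0.4 kb. The pairs were picked by their distances, so these leans follow from the choice.

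The distance between the landmarks, 0.87 Mb, gave a wider search for counterparts. A fixed shift looks only for copies that run the same way. It does not search for copies that face opposite ways, as GTF2H2C and GTF2H2 do on GRCh38.p14. Within 20000 bp of this distance, 14 of 23 members (60.9%) had another peak, against 12.6% of the rest of chromosome 5 with the same shift. In 7 of the 253 pairs of members the distance met this condition. Besides the matched pairs above, the peak of 596 bp met it with those of 626 and 684 bp, at 860601 and 854657 bp. The peak of 377 bp met it with the one of 1186 bp, at 865561.5 bp, and so shares that counterpart with the peak of 923 bp. The 7 pairs hold 12 of the 14 members, and the other 2 had their counterpart outside the region. The peaks of the rest of the chromosome were searched only among themselves, so they could not match a member. The region held far more peaks per Mb than the rest of the chromosome, and a crowded region meets any shift more often. The part of crowding in this count was not tested.

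A further pair of broad and narrow peaks stood farther on, towards BDP1. The peaks of 3403 and 1274 bp after SMN2 lay 49.4 kb apart, those of 3708 and 454 bp after SMN1 lay 50.4 kb apart, and those of 3403 and 1227 bp farther on lay 49.3 kb apart. At all 3 places the broad peak came first, and it was 2.67, 8.17 and 2.77 times as long as the narrow one. The first and the last of these places matched most closely. Their broad peaks were equal in length to the bp, and both starts and ends were 1000353 bp apart. With the same shift, the peak of 1274 bp overlapped 94.5% of the one of 1227 bp. The last place was picked because its distance matched that of the first to within 100 bp. The shift was taken from the broad peaks themselves. The closeness of the distances and the overlap of the narrow peaks therefore follow from the choice. Scores at the first and the last place were 63.81 and 73.2 for the broad peaks and 65.55 and 52.98 for the narrow ones. Equal length thus did not come with equal score.

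A length of 3403 bp occurred in only 2 of the 2692 peaks, both of them members. Of the 187 peaks of the list that were 3000 bp or longer, 13 (6.95%) shared their exact length with another peak, whereas among all peaks, which are mostly short, 70.6% did. One other pair of members was equal in length, the peaks of 763 bp that started at 68855721 and 69515160, 659439 bp apart. That length occurred in 4 peaks of the list. The scores of this pair were 51.23 and 89.91. Among distances within the region, 1 set of 4 peaks held matching distances to within 100 bp, the broad and narrow peaks of the first and last place. Within 10 bp there were 0 such sets and within 1000 bp 11. In 86 consecutive windows of the same size along the rest of chromosome 5, 0 held such a set. Only 13 of them held the more than 3 peaks it needs, and none held more than 7. The region, with 23 peaks, offers far more sets of 4, so the count of 0 cannot tell it from the other windows.

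The distance shared by the SMN2 and SMN1 sides was not the only shared one. Groups of 3 pairs with no peak in common and distances within 1500 bp of one another began at 42.5, 49.3, 556 and 875 kb. The group at 49.3 kb is the broad and narrow pair at its 3 places. Every one of the 4 groups held pairs of unlike length, such as 1274 and 454 bp in the group at 875 kb. Within 1500 bp, no distance was shared by 4 or more such pairs. The matched pairs and groups were picked out after the positions were seen. They left 13 of the 23 members, the 4 of BDP1 among them, in neither the 4 matched pairs nor the further pair. Among these 13, the peaks of 626, 684, 377 and 596 bp did have a counterpart within 20000 bp of the landmark distance.

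**Figure D3:**
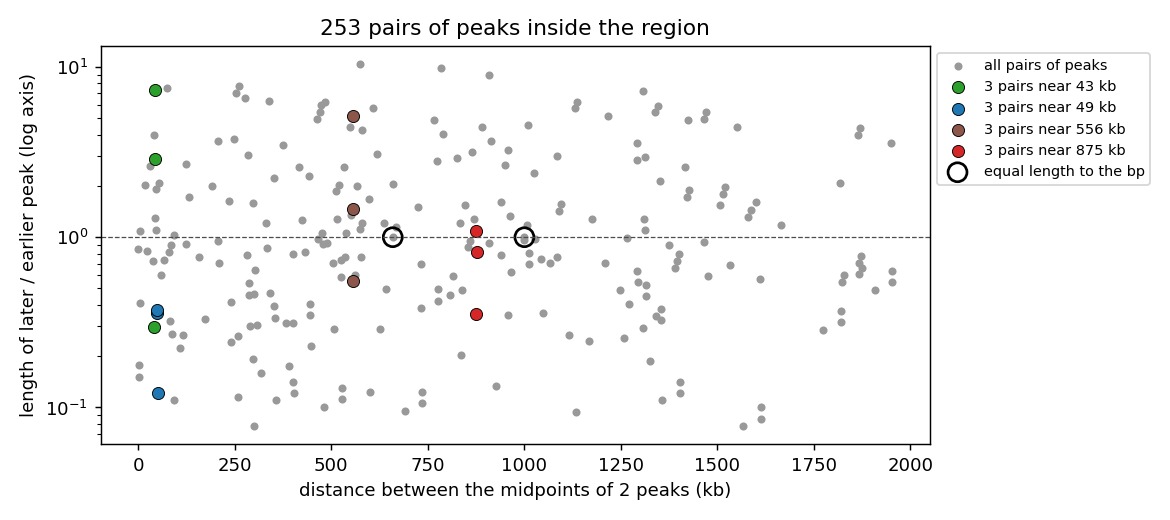
All 253 pairs of members, with the midpoint distance in kb on the horizontal axis and the ratio of later to earlier peak length on a log axis. Coloured points are the 4 groups of 3 pairs that share a distance and open circles the 2 pairs of equal length. The 3 pairs near 875 kb have ratios of 0.81, 1.09 and 0.36.

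The crowding of the region stood out on chromosome 5. It held 13.9% of the peaks of the chromosome in 1.16% of the span between its first and last peak. This gave 11.0 peaks per Mb (95% Poisson interval 6.94 to 16.4, counting error only), against 0.801 (0.675 to 0.944) over the rest, a 13.7-fold difference. In 86 other windows of 2.1 Mb along the chromosome the median was 1 peak and the highest count 7, and 25 windows were empty. The window just before the region held 3 peaks and the window just after it 5. Since the region was chosen for its peaks, this contrast was not tested.

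**Figure D4:**
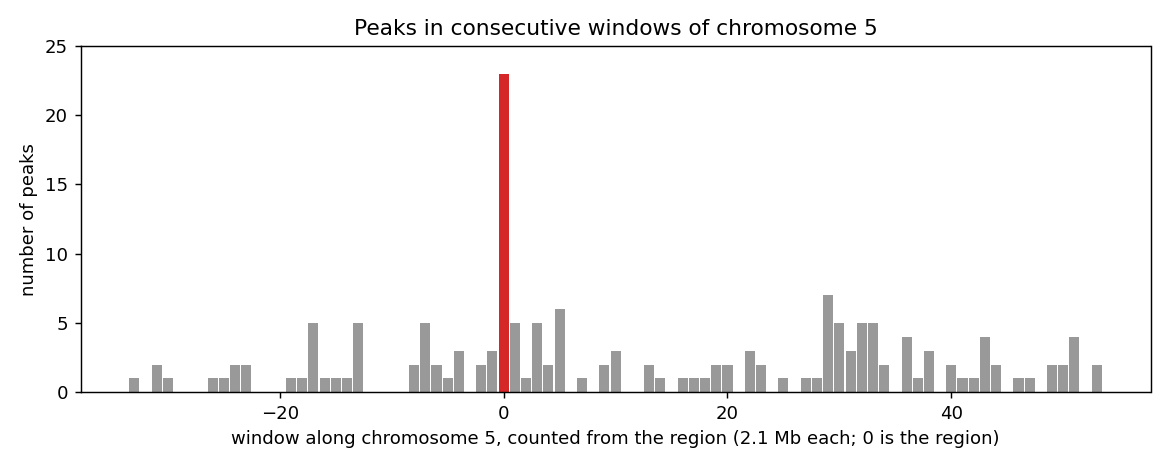
Number of peaks in consecutive windows of 2.1 Mb along chromosome 5, counted from the region at 0. The region, in red, holds 23 peaks and no other window more than 7.

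Spacing inside the region was uneven. Gaps between successive members ran from 408 bp to 280.3 kb with a median of 46.7 kb, and 6 of the 22 gaps exceeded 200 kb. A neighbour within 10000 bp was found for 7 of the 23 members (30.4%), against 20.2% of the whole list and 11.9% of the rest of chromosome 5. These 7 were a pair before SMN2, a pair after SMN2 and the run of 3 in the BDP1 interval. Within 100000 bp, 21 members (91.3%) had a neighbour, against 47.2% of the whole list and 42.0% of the rest of the chromosome. A crowded region has nearer neighbours, and this region was chosen for its peaks. These shares are therefore not separate from the crowding, and its part in them was not tested.

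The median score of the members was close to that of the other peaks of the chromosome. It was 63.81 over a range of 50.16 to 129.14 (quartiles 56.2 and 84.4), against a median of 63.69 (54.5 and 81.1) for the rest of chromosome 5, whose highest score was 277.41. A score above 100 was reached by 4 members (17.4%), against 16.0% of the whole list and 14.0% of the rest of chromosome 5, so this share was near the background. Above the median score of the whole list, 65.905, lay 10 members (43.5%), against 50.0% of the list and 46.2% of the rest of the chromosome. The 4 members above 100 were the first of BDP1, its peak of 483 bp, the peak of 3922 bp before SMN1 and the peak of 1186 bp after it. All 4 lay from the peak before SMN1 onwards, and the highest score among the members before them was 89.91.

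Length differed more at its upper end than in the middle. The median was 923 bp for members and 892 bp for the rest of chromosome 5, and the upper quartiles were 2016.5 and 1252 bp. A length of 3000 bp or more was reached by 5 members (21.7%), against 6.95% of the whole list and 7.69% of the rest of chromosome 5. At 2000 bp or more the shares lay closer together, with 6 members (26.1%) against 14.0% of the list and 14.7% of the rest of the chromosome. The line of 3000 bp was set after the lengths were seen, and 5 peaks are few. The 5 members of 3000 bp or more were all among the matched places: the pair before the SMN landmarks, the pair after them, and the broad peak of the further pair. They scored 87.41, 115.61, 63.81, 62.3 and 73.2.

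**Figure D5:**
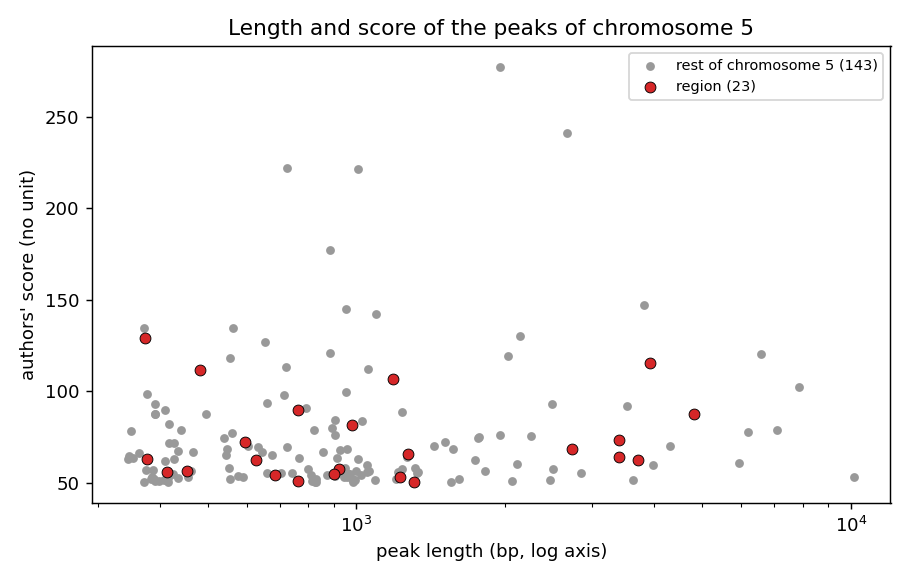
Length in bp (log axis) against the authors' score for the 23 members (red) and the 143 other peaks of chromosome 5 (grey). Members spread over the same lengths and scores as the others, from 374 to 4814 bp, with none above a score of 129.14.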

How the data were processed

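RNA recovered with HA-precipitated GATA2 was analysed from 1 peak list of 1 library of K562 cells, and the groups come from the sample titles. The submitters' processing notes list the build hg19 and the tools Bowtie2, bedtools, SAMtools, cutadapt and UMI-tools 1.0.0. What each did, which control and threshold the caller had, and where reads with several positions went are matters not given in the sources used here. The names in the deposited list start with MACS, a peak caller. The deposited score is the authors' value per peak, on an unstated scale, and was used only to describe and rank peaks. The other deposited values are starts and ends in bp. The depth is unknown and no test across replicates was possible.

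Members were chosen by midpoint, and members and lists were chosen with earlier results of these data known. All 23 peaks are named. Distances between midpoints were compared with the distance of the approximate landmarks, with a tolerance of 20000 bp, and with one another within 100 and 1500 bp, the last set after seeing the data. The functions that compare distances were tested on simulated positions with planted exact copies, and only the recovery of these copies was checked. How often matches arise without copies was not simulated. No genome of hg19 was used, so peaks were not assigned to exons or introns. Promoters were aligned globally with free end gaps. Alternatives were the higher-scoring peaks, peaks within 1000 bp merged, membership by overlap, and other tolerances. Computation used biopython 1.88, matplotlib 3.10.9, numpy 2.4.6, scipy 1.17.1 and pandas 2.3.3 under Python 3.11.15.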

Additional observations from a re-analysis of the deposited data

How the results depend on the processing

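Of 21 alternatives, 15 left the value within 1.5 times of the reported one. Each was set only beside its own reported value, not beside the contrast with the rest of chromosome 5. The 15 include the fall of the largest group of pairs from 3 to 2. With the higher-scoring peaks alone the members numbered 10, by construction fewer. The region stayed 11.8-fold to 13.8-fold denser than the rest of chromosome 5. The 143 other peaks of chromosome 5 were again searched for counterparts only among themselves. Members with a counterpart at the SMN2 to SMN1 distance numbered 11 of 23 within 10000 bp and 16 within 50000 bp, against 12 and 25 of the 143 other peaks of chromosome 5. They numbered 6 of 23, against 4 of the 143 other peaks, within 1500 bp of a shift chosen from the positions themselves, which selects the 3 pairs by construction. Sets of 4 peaks with matching distances numbered 0 within 10 bp and 11 within 1000 bp. A neighbour was found for 13% of members within 1000 bp and 91.3% within 100000 bp, against 1.4% and 42.0% of the rest of chromosome 5. These shares too are not separate from the crowding of the region. The largest group of pairs that share a distance held 3 pairs, 4 within 3000 bp and 2 with the higher-scoring peaks. All values rest on 1 library whose depth is not known. No paired analysis was possible because only the immunoprecipitate had a peak list. The immunoprecipitate and the input are also 1 sample each, and their titles give no replicate number.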
